A study of Mus musculus with 23 samples.

Results

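Choroid plexus and ependymal genes were followed here as a set of 34 genes that serve or mark the cells lining the fluid spaces of the brain and spinal cord. Genes were taken by name. The set held 14 genes for secreted or surface proteins of choroid plexus, 12 for its transport and junction proteins, 3 for its regulators, and 5 for the motile cilia of ependymal cells. All 34 had a row among the 20016 gene rows of the cortex table, and 33 had one among the 19890 of the lumbar spinal cord table. Otx2 was analysed in cortex only. A member was used in a tissue where its mean level was at least 0.5 RPKM (reads per kilobase of gene, scaled to the library's total alignments), which held for 31 members in cortex and 17 in cord.

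The choroid plexus is a folded epithelium inside the brain ventricles that makes most of the cerebrospinal fluid. Its cells secrete transthyretin and growth factors into the fluid and carry folate, ions and water across from the blood. Ependymal cells line the ventricles and the central canal of the cord, and beat cilia whose genes are switched on by the transcription factor Foxj1 together with the RFX family. Neither cell type is a part of cortical grey matter, and the lumbar cord has a central canal but no choroid plexus.

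The mice were C57BL/6 and 6 months old. F112 mice (F112exp in the labels) carried a bacterial artificial chromosome (BAC) with human C9orf72 and its expanded repeat, F08 mice carried a BAC with human C9orf72 and no expansion, and nontransgenic (NTg) mice carried neither. Cortex libraries numbered 3 F112, 4 F08 and 4 NTg, and cord libraries 4 of each, from 12 numbered mice, of which F112 6325 gave cord only. Each transgenic group was 1 line, the labels give no sex, and the sources used do not say which cells express the transgene. In bulk tissue, fewer cells of a type and less RNA per cell cannot be told apart.

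Depth ran from 9398450 to 14715900 alignments per cortex library and from 28479400 to 38811100 per cord library, so the floor of 0.5 RPKM stood for 4.70 to 7.36 alignments per kilobase in cortex and 14.2 to 19.4 in cord. The row of mouse C9orf72 (3110043O21Rik) had 9.54 to 10.7 RPKM in F112 cortex, 5.51 to 7.44 in F08 cortex and 3.05 to 4.2 in NTg cortex, and 11.8 to 13.4, 11.6 to 12.1 and 11.8 to 12.1 RPKM in F112, F08 and NTg cord. Xist, which is transcribed in female cells, exceeded 5 RPKM in the same 6 mice in both tissues, a pair in each genotype.

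In cortex, the libraries F08 6320, NTg 6322 and NTg 6326 stood apart from the other 8 before any genotype was compared. Transthyretin (Ttr), the thyroid hormone carrier that is among the most abundant transcripts of choroid plexus, had 1.27, 2.18 and 9.35 RPKM in F112 cortex (mice 6316, 6317 and 6324), 6.03, 1.2, 725 and 16.6 RPKM in F08 cortex (6318 to 6321), and 705, 6.73, 375 and 10.5 RPKM in NTg cortex (6322, 6323, 6326 and 6327). The 3 libraries lay above 100 RPKM and the remaining 8 between 1.2 and 16.6 RPKM. Apart from Ttr, which set the 3 apart, 14 of 30 members above the floor (46.7%) had these libraries as their highest. This was so for 0.426% of the 13865 cortex genes tested. Since 12 of the 31 members kept passed the floor only through these libraries, the members' share is partly fixed by the filter. Levels of NTg 6322 exceeded all 8 other libraries for 28 of the 29 choroid members, those of F08 6320 for 24 and those of NTg 6326 for 17. These counts include Ttr itself and members under the floor, and no share over all genes was computed beside them. The genotype comparisons in cortex are therefore given with and without the 3.

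**Figure D1:**
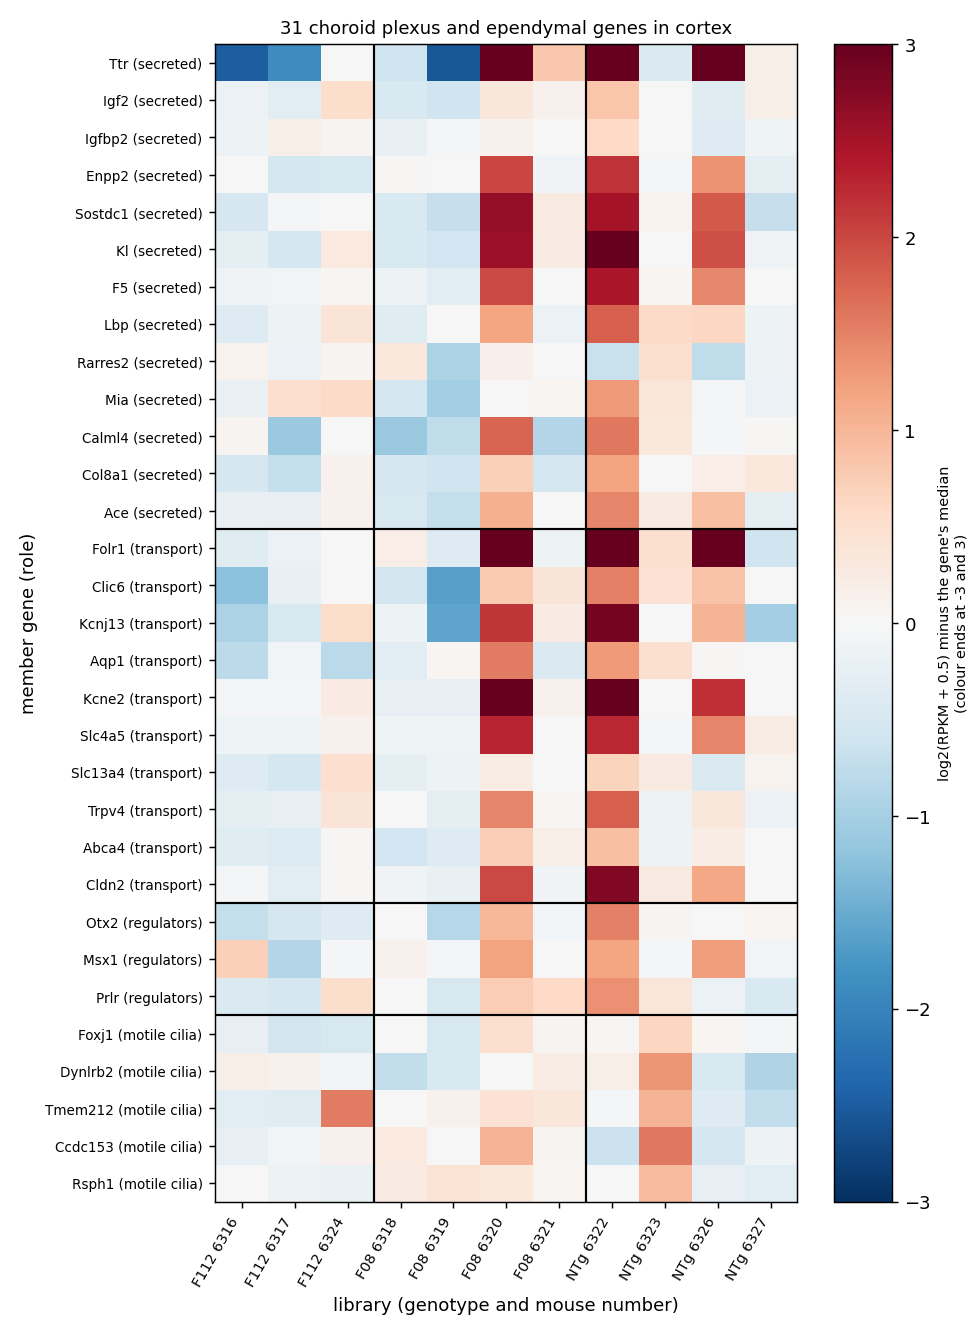
Levels of the 31 members kept in cortex, as log2(RPKM + 0.5) minus each gene's median over 11 libraries (colour, from -3 to 3), with libraries in columns (F112, F08, NTg) and genes in rows by role. F08 6320, NTg 6322 and NTg 6326 are dark red over most choroid rows, while 4 of the 5 motile cilia rows are highest in NTg 6323.

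Among the secreted members, Enpp2, the enzyme autotaxin that makes lysophosphatidic acid, had 109 RPKM in F08 6320, 122 in NTg 6322 and 68.8 in NTg 6326, against 18.2 to 27.5 RPKM in the other 8. Kl, the FGF23 co-receptor klotho, had 6.98, 9.76 and 4.30 RPKM in the same order, against at most 1.05. Sostdc1, an antagonist of BMP and Wnt signals, had 6.77, 6.01 and 3.65 RPKM, against at most 0.909. Thus the 3 libraries lay well clear of the rest for these genes, and the order within the 3 differed: F08 6320 was highest for Sostdc1 and NTg 6322 for Enpp2 and Kl.

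F5, coagulation factor V, had 1.96, 2.86 and 1.18 RPKM in F08 6320, NTg 6322 and NTg 6326 and at most 0.145 elsewhere. Ace, the angiotensin-converting enzyme, had 8.21, 10.9 and 7.24 RPKM against 2.02 to 4.43. Lbp, which binds bacterial lipopolysaccharide, had 1.52, 2.57 and 0.856 RPKM against at most 0.822, so that NTg 6326 barely passed NTg 6323. Calml4, a calmodulin-like protein, and Col8a1, a collagen VIII chain, were highest in F08 6320 and NTg 6322, with 3.15 and 2.73 RPKM for Calml4 and 1.31 and 2.06 RPKM for Col8a1, while NTg 6326 lay within the range of the other 8.

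Other secreted members did not follow Ttr. Igf2, a growth factor made in choroid plexus and leptomeninges, had 17.7, 25.2 and 10.7 RPKM in F08 6320, NTg 6322 and NTg 6326, against 9.04 to 20.1. Igfbp2, which binds insulin-like growth factors, had 24.4, 33.9 and 16.9 RPKM against 18.9 to 25.0. NTg 6322 was highest for both genes, and NTg 6326 was the lowest library of all for Igfbp2. Rarres2, the chemoattractant chemerin, had 5.30, 2.81 and 2.6 RPKM against 2.21 to 6.80, with its peak in NTg 6323. Mia, a small secreted protein, reached 1.98 RPKM in NTg 6322 and at most 1.02 elsewhere.

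The transport members had lower levels and sharper contrasts. Folr1, the folate receptor that loads folate into the fluid, had 8.11, 10.2 and 5.86 RPKM in F08 6320, NTg 6322 and NTg 6326 and 0 to 0.553 RPKM in the other 8. Kcnj13, an inwardly rectifying potassium channel, had 7.97, 13.6 and 3.42 RPKM against 0.145 to 2.33. Kcne2, a potassium channel subunit, had 4.74, 5.09 and 2.22 RPKM against at most 0.195. These genes separated the 3 libraries from the rest with no overlap. Clic6, a chloride channel protein, did so by less, with 3.54, 6.19 and 3.77 RPKM against 0.262 to 2.67.

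Slc4a5, a sodium bicarbonate cotransporter, had 2.17, 2.12 and 1.01 RPKM in the 3 libraries and at most 0.134 in the others. Cldn2, a claudin of leaky tight junctions, had 1.97, 3.80 and 0.889 RPKM against at most 0.251. Aqp1, the water channel, had 5.52 and 4.42 RPKM in F08 6320 and NTg 6322 but 1.60 in NTg 6326, within the 0.659 to 2.37 RPKM of the others. Slc13a4, a sulfate transporter, had 3.55, 5.00 and 2.09 RPKM against 1.93 to 4.44, so that only NTg 6322 lay above the others. Trpv4, an osmosensitive cation channel, reached 2.01, 2.64 and 0.641 RPKM against at most 0.692, and Abca4, known as the retinoid transporter of photoreceptors, 1.32, 1.53 and 0.778 RPKM against at most 0.725.

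Members close to the floor were split by it. Prlr, the prolactin receptor, passed in cortex with a mean of 0.503 RPKM, and Wfdc2 missed it with 0.493. Tmem72 and Steap1, a metalloreductase, also missed it, with means of 0.472 and 0.463 RPKM, although Tmem72 had 1.79, 2.18 and 0.761 RPKM in F08 6320, NTg 6322 and NTg 6326. Of the 31 that passed, 19 would also pass on the other 8 libraries alone and 12 would not, so the 12 passed only through the 3 libraries. Counts and medians over the 31 therefore describe the members kept, and no more.

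Of the regulators, Otx2, the homeobox factor required to form choroid plexus, had 0.103, 0.197 and 0.265 RPKM in F112 cortex, 0.493, 0.0452, 1.48 and 0.437 in F08 cortex and 2.32, 0.551, 0.506 and 0.527 in NTg cortex. NTg 6326 was thus no higher in Otx2 than NTg 6323. Msx1, a homeobox factor of dorsal midline tissue, had 3.91, 3.83 and 4.07 RPKM in F08 6320, NTg 6322 and NTg 6326, against at most 2.62, so here NTg 6326 was the highest. Prlr had 0.890, 1.66 and 0.237 RPKM in the same libraries against at most 0.763.

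The ratio of NTg 6322 to NTg 6326 was therefore not the same for all members. It was 1.88 for Ttr, 1.74 for Folr1, 1.77 for Enpp2 and 1.65 for Sostdc1, but 3.99 for Kcnj13, 4.27 for Cldn2 and 4.59 for Otx2, and 0.941 for Msx1. Role did not order these ratios: the transport members Clic6 and Kcne2 had 1.64 and 2.29, and the secreted members Lbp, Mia and Calml4 had 3.00, 3.97 and 4.98.

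Promoter sequence was available for 25 of the 34 members from RefSeq (build GRCm38.p6), as the 250 bases before an annotated start. The core letters of an Otx2-type homeobox motif (TAATCC on either strand) were searched because Otx2 is a member. They were found in 3 of 34 choroid member windows (8.82%; of Abca4, Ace and Otx2), against 6.25% of 32817 windows of all genes. The windows of Abca4 (chr3:122044210-122044459, plus strand) and Ace (chr11:105967698-105967947, plus strand) are printed with the match in capitals.
Abca4: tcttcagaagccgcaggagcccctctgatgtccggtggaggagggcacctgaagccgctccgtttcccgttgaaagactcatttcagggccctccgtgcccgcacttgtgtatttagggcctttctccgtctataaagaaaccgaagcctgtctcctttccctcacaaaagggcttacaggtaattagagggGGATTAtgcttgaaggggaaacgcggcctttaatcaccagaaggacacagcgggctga
Ace: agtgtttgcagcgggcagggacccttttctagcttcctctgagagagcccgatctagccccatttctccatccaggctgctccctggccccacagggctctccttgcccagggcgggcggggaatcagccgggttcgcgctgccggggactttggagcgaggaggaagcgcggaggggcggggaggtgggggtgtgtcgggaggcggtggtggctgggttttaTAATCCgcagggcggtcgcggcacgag
The share in choroid members was near that of all genes, and a match is a string of letters, not a shown binding site.

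The sums of other cell lists did not single out the same 3 libraries. A list of 19 striatal genes (led by Penk and Ppp1r1b), which a cortex dissection can include, summed to 204 RPKM in F08 6320, 198 in NTg 6322 and 1397 in NTg 6326, against 203 to 984 RPKM in the other 8. So NTg 6326 was the highest and NTg 6322 the lowest of all 11. A list of 21 leptomeningeal genes (led by Ptgds and Mgp) summed to 411, 799 and 321 RPKM in the 3, against 420 to 922 RPKM. Most of each sum was Ptgds, with 338, 720 and 275 RPKM in the same order. Mgp had 16.6, 27.9 and 17.9 RPKM, within the 16.6 to 31.6 RPKM of all libraries. Hippocampal and thalamic genes (20, led by Wfs1 and Calb2) summed to 140, 84.3 and 92.0 RPKM against 91.8 to 142. Endothelial and mural genes (17, led by Cldn5 and Ly6c1), astrocyte genes (10, led by Slc1a2 and Slc1a3) and blood genes (11, led by Hba-a2 and Hbb-bs) spanned 119 to 163, 408 to 494 and 311 to 807 RPKM over all cortex libraries, and no gene of these 6 lists was at 0 in every library. Their part in the member levels was not tested.

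Spread over the cortex libraries was wide for the set as a whole. The coefficient of variation (the standard deviation as a percent of the mean) of the 31 members had a median of 96.5%, from 19.8% (Igfbp2) to 175% (Cldn2), against a median of 15.4% over all genes tested. In cord the 17 members had a median of 13.5%, from 3.98% (Enpp2) to 32.0% (Calml4), against 6.09% over all genes tested.

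Since the cortex libraries fell into 2 clusters by Ttr, co-variation with Ttr was measured within the 8 libraries below 100 RPKM only. Pearson's r was above 0 for 26 of 30 members, with a median of 0.494. Clic6 (r = 0.848, Spearman's rho = 0.81, exact permutation p = 0.00764, adjusted p = 0.0828) and Otx2 (r = 0.835, rho = 0.69, exact permutation p = 0.0162, adjusted p = 0.132) were highest. Without the 2 libraries farthest from the median Ttr level, r was 0.522 for Clic6 and 0.530 for Otx2. No relation passed after adjustment over the 65 relations computed in cortex, and 0 of 21 passed in cord. The median of 0.494 over the 30 members, 5 of them ciliary, was 0.373 without the 2 farthest libraries, and Enpp2 was among the 4 members at or below 0. No value over all genes was computed beside it. Of the 31 members kept in cortex, 12 do not reach the floor over these 8 libraries, Otx2 among them. Their r rests on mean levels below 0.5 RPKM.

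With the mean log2 level of 20 leptomeningeal genes on the x axis in place of Ttr, an axis chosen after seeing the data, r was above 0 for 29 of 31 members in the same 8 libraries (median 0.524). Without the 2 farthest libraries the median was 0.261, and -0.328 for the 5 ciliary members. Col8a1 (r = 0.931, rho = 0.833, exact permutation p = 0.00233, adjusted p = 0.0828) was highest. Igf2 (r = 0.874, rho = 0.905, exact permutation p = 0.00548, adjusted p = 0.0828) and Slc13a4 (r = 0.874, rho = 0.833, exact permutation p = 0.00655, adjusted p = 0.0828) followed, and r without the 2 farthest libraries was 0.910, 0.896 and 0.762 for the 3 genes. Igf2 and Slc13a4, which did not follow Ttr into the 3 high libraries, were thus among the members closest to the leptomeningeal level. Members that did follow Ttr there could be nearly as close, such as Cldn2 (r = 0.831, rho = 0.929) and Slc4a5 (r = 0.823, rho = 0.812). Others that followed Ttr were not close, such as Folr1 (r = 0.217) and Enpp2 (r = -0.24), nor was Igfbp2 (r = 0.115), which did not follow it. Closeness to this level therefore did not divide the members by whether they followed Ttr.

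**Figure D2:**
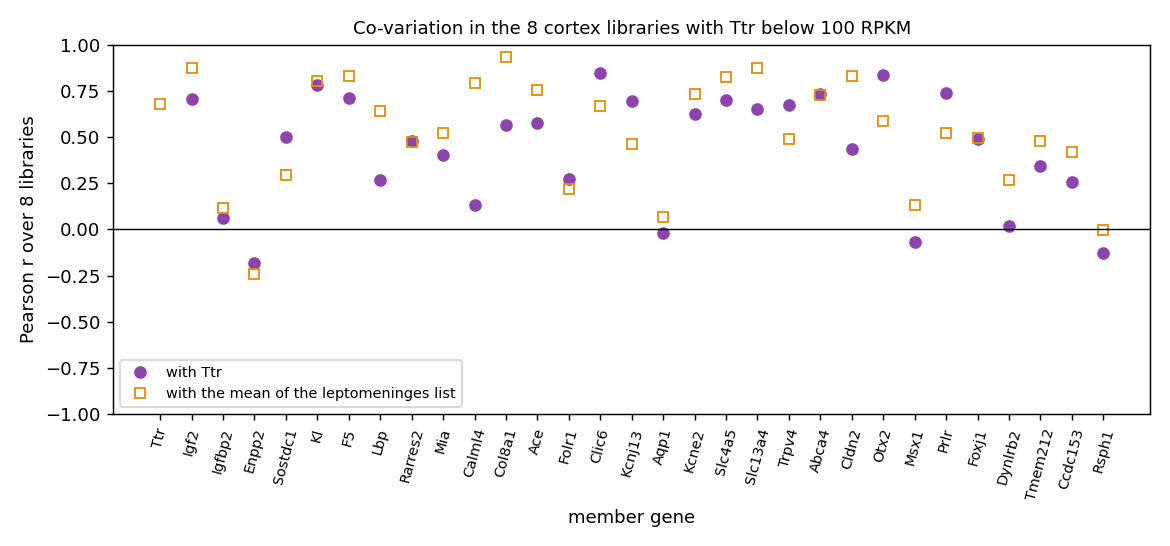
Pearson's r of each member with Ttr (filled circles) and with the mean log2 level of the leptomeningeal list (open squares), over the 8 cortex libraries with Ttr below 100 RPKM. Most points lie above 0, Clic6 and Otx2 are highest with Ttr, and Enpp2 lies below 0 on both axes.

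The 5 motile cilia members behaved otherwise in cortex. Foxj1, the master regulator of motile cilia, had 1.42, 1.08 and 1.15 RPKM in F112 cortex, 1.80, 1.14, 2.68 and 1.92 in F08 cortex, and 1.87, 3.10, 1.90 and 1.74 in NTg cortex. Ccdc153, a coiled-coil protein of the ciliary dynein regulatory complex, had 0.307, 0.393 and 0.533 RPKM in F112 cortex, 0.656, 0.451, 1.42 and 0.513 in F08 cortex, and 0.104, 2.33, 0.173 and 0.351 in NTg cortex. NTg 6323, a library with 6.73 RPKM of Ttr, was the highest for both. It was also the highest for Dynlrb2, a dynein light chain (2.54 RPKM, against at most 0.928 elsewhere), and Rsph1, a radial spoke head protein (2.31 RPKM, against at most 1.43). Tmem212, an ependymal marker, was highest in F112 6324 with 1.96 RPKM and had 1.18 RPKM in NTg 6323. None of the 3 libraries rich in Ttr exceeded all 8 others for any ciliary member.

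Within cortex, r of the other 4 ciliary members with Foxj1 over 11 libraries ranged from 0.170 to 0.637 (median 0.498) and the median was 0.106 without the 2 libraries farthest from the median Foxj1 level. In cord over 12 libraries r ranged from 0.304 to 0.536 (median 0.385) and the median was 0.139 without the 2 farthest. Rsph1 with Foxj1 in cord had the largest r of that tissue's 4 (r = 0.536, rho = 0.364, permutation p = 0.0681, adjusted p = 0.277). Leaving out 2 libraries thus lowered both medians, although r of Dynlrb2 in cord was 0.413 after it and 0.385 before.

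RFX factors bind X-box sites in ciliary promoters, so the core letters GTTGCC were searched on either strand in the same 250-base windows. They were found in 2 of the 3 ciliary members with a window (Dynlrb2 and Ccdc153, not Tmem212), in 14 of 39 windows of 35 other motile cilia genes (35.9%), in 5 of 34 windows of choroid members (14.7%; of Aqp1, Kcne2, Otx2 and Steap1), and in 10.4% of 32817 windows of all genes. The windows of Dynlrb2 (chr8:116504765-116505014, plus strand), Ccdc153 (chr9:44240427-44240676, plus strand) and Tmem212 (chr3:27896369-27896618, minus strand) are shown as those of the ciliary members that had a window, with the match in capitals.
Dynlrb2: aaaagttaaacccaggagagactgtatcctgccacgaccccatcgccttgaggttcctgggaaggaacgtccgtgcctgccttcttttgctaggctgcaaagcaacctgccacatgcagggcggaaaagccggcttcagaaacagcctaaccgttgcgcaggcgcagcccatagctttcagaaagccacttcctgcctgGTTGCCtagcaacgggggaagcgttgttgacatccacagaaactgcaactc
Ccdc153: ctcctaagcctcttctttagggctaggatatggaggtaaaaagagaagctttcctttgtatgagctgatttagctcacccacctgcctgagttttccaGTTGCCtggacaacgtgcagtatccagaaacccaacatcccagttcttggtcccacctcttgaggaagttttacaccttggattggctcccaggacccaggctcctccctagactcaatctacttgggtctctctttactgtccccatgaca
Tmem212: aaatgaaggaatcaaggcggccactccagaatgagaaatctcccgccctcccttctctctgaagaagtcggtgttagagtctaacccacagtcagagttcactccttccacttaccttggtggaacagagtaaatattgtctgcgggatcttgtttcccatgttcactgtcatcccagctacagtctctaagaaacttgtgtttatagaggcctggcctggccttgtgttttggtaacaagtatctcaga
The match lies 51 bases before the start of Dynlrb2 and 152 bases before that of Ccdc153, and Tmem212 holds none of these letters in this window.

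In lumbar cord the choroid label did not hold. Ttr had 0.0256, 0.697, 0.0259 and 0.0228 RPKM in F112 cord (6316, 6317, 6324 and 6325), 0.0984, 0.0842, 0.0262 and 0.0944 in F08 cord, and 0, 0.0310, 0.0617 and 0 in NTg cord. Only F112 6317 exceeded 0.1 RPKM. Kcnj13, Aqp1, Kcne2, Cldn2, Tmem72 and Slc13a4 had means of 0.0102 to 0.0894 RPKM. Of the 16 members below the floor the highest was Clic6, with a mean of 0.457 RPKM, and the lowest that passed was Trpv4, with 0.531.

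The choroid members that passed in cord are known from other cells as well. Enpp2, which oligodendrocytes also make, had 117 to 130 RPKM in F112 cord, 120 to 124 in F08 cord and 114 to 129 in NTg cord. Igfbp2 had 10.4 to 12.0, 11.1 to 12.3 and 11.3 to 11.7 RPKM, and Ace 6.16 to 6.87, 6.62 to 6.96 and 6.06 to 7.33 RPKM in F112, F08 and NTg cord. The genotypes overlapped for all 3 genes. Rarres2, Igf2 and Mia spanned 3.88 to 5.78, 1.65 to 3.00 and 1.84 to 2.89 RPKM over the 12 libraries, and Prlr, Msx1, Kl, Calml4, Slc4a5 and Trpv4 had means between 0.531 and 1.25 RPKM.

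The ciliary members were all kept in cord, where the central canal lies in the sample. Foxj1 had 9.22, 8.99, 7.57 and 10.2 RPKM in F112 cord, 11.0, 10.7, 10.9 and 9.29 in F08 cord, and 11.3, 10.8, 10.4 and 9.61 in NTg cord. F112 6324 was the lowest and NTg 6322 the highest. Ccdc153 had 2.19, 1.66, 1.66 and 1.51 RPKM in F112 cord, 2.02, 1.70, 1.97 and 2.55 in F08 cord, and 2.74, 2.47, 2.50 and 1.86 in NTg cord. Tmem212 had 1.44, 1.23, 0.970 and 0.699 RPKM in F112 cord, 1.34, 1.19, 0.892 and 1.49 in F08 cord, and 1.90, 1.90, 1.58 and 0.926 in NTg cord. For both genes NTg 6322, 6323 and 6326 lay above every F112 library while NTg 6327 fell inside the F112 range.

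Rsph1 had 2.53, 2.17, 1.79 and 2.01 RPKM in F112 cord, 2.09, 2.53, 2.12 and 2.33 in F08 cord, and 2.59, 2.50, 2.53 and 2.01 in NTg cord. Dynlrb2 had 1.15, 1.78, 1.17 and 1.62 RPKM in F112 cord, 1.57, 1.40, 1.37 and 1.29 in F08 cord, and 1.70, 2.06, 1.10 and 1.72 in NTg cord. The genotypes overlapped for both.

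**Figure D3:**
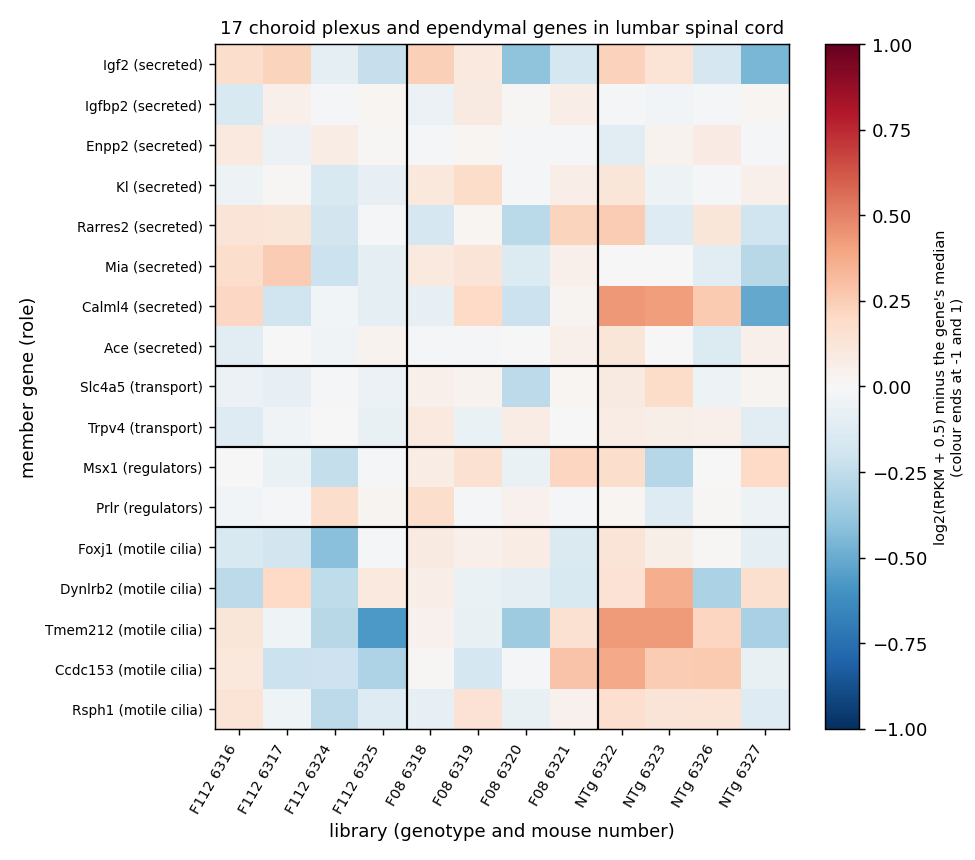
Levels of the 17 members kept in lumbar cord, as log2(RPKM + 0.5) minus each gene's median over 12 libraries (colour, from -1 to 1), with libraries in columns (F112, F08, NTg). The range is narrower than in cortex, and NTg 6322, 6323 and 6326 are red for Tmem212, Ccdc153 and Calml4.

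F112 against NTg asks what the expanded transgene goes with. None of the 3 cortex libraries rich in Ttr was F112, and no member passed the test. Fits used limma on log2(RPKM + 0.5) over all 13865 genes with Benjamini-Hochberg adjustment, a scale that understates the fold change of low genes. With F112 against NTg, 0 of 31 members were called at an adjusted p under 0.05, beside 0.00721% of all genes tested, while 3 (9.68%) had an unadjusted p under 0.05, beside 1.97% of all genes. The 3 were Foxj1, Aqp1 and Clic6, all lower in F112. This count was 10 of 33 without NTg 6327, 8 of 28 without F08 6320, 6 of 29 with only the groups compared, and 1 without NTg 6322, F112 6316 or F112 6317, with no filter or with the Xist or alignments covariate. The share of all genes was not computed for these refits. Of the 31, 27 log2 fold changes were below 0 (median -0.76), beside 56.4% of all genes (median -0.02). Without NTg 6322 the median was -0.41, with 20 of 26 below 0. In the same comparison 19 of 19 striatal genes (median -0.29), 8 of 10 blood genes (-0.42) and 14 of 17 endothelial and mural genes (-0.10) were below 0, while 14 of 17 hippocampal and thalamic genes (0.23) and 8 of 10 astrocyte genes (0.06) were above 0. Leptomeningeal genes were evenly split, with 10 of 20 below 0. The part of these lists in the member differences was not tested.

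Ttr averaged 4.27 ± 4.42 RPKM in F112 cortex (SD, n = 3) and 274 ± 335 RPKM in NTg cortex (SD, n = 4), with a log2 fold change of -4.23 (SE 1.98). Its limma adjusted p was 0.9998 and an exact two-sided permutation test gave p = 0.143, adjusted to 0.429 over 6 comparisons. Without the 3 libraries the log2 fold change was -1.31. Folr1 differed by -1.89 (SE 1.08), Kl by -1.38 (SE 0.83), Enpp2 by -1.13 (SE 0.60) and Cldn2 by -1.16 (SE 0.66), none of them called. Without the 3 libraries, Kl and Enpp2 were at -0.12 and -0.17, and Folr1 and Cldn2 did not reach the floor. The large differences thus went with NTg 6322 and NTg 6326.

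Foxj1, Aqp1 and Otx2 were the members whose F112 and NTg cortex levels did not overlap, all lower in F112. They made up 9.68% of the 31 members, beside 1.86% of all genes tested. Otx2 passed the floor only through the high libraries, as did 12 of the 31, so these shares are not like for like. Among the 19 members that pass without them, Foxj1 and Aqp1 remain. Foxj1 averaged 1.22 ± 0.18 RPKM in F112 cortex (SD, n = 3) and 2.15 ± 0.64 RPKM in NTg cortex (SD, n = 4). Its log2 fold change was -0.60 (SE 0.23, unadjusted p = 0.0214, adjusted p = 0.9998 by limma). The exact permutation test gave p = 0.0286, the smallest that 3 against 4 allows, adjusted to 0.114. Without the 3 libraries Foxj1 was at -0.73 (3 against 2). Within mice high and low in Xist it was at -0.75 (2 against 2) and -0.49 (1 against 2). For both -0.73 and -0.75, 1 of the 2 NTg libraries was NTg 6323. That library had 3.1 RPKM of Foxj1, against 1.74 to 1.9 in the other NTg libraries. With NTg 6323 alone left out the log2 fold change was -0.45, so the larger values depend on that library.

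Aqp1 averaged 0.924 ± 0.438 RPKM in F112 cortex (SD, n = 3) and 2.48 ± 1.35 RPKM in NTg cortex (SD, n = 4), a log2 fold change of -1.01 (SE 0.45) and of -0.81 without the 3 libraries. Otx2 differed by -0.95 (SE 0.44), and did not reach the floor without them. Clic6 differed by -1.18 (SE 0.53), and by -0.69 without them. None of these was called by limma, with adjusted p = 0.9998 for each.

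Of the 10 transport members kept, 6 passed the floor only through the 3 libraries, 2 of which are NTg, so their difference from NTg is not independent of the filter. Over the 19 members that also pass without those libraries the median was -0.60 (15 of 19 below 0), with -1.01 for 4 transport members, -0.70 for 9 secreted members and -0.14 for the 5 ciliary members. With the 3 libraries left out of the fit, 14 of these 19 were below 0 with a median of -0.14, beside a median of -0.08 over all genes. Within classes of libraries the median was -1.24 in mice high in Xist and -0.13 in mice low in Xist, and 0.05 among the more deeply sequenced libraries (1 against 2) and -1.32 among the less deeply sequenced (2 against 2). Both NTg libraries rich in Ttr were in the less deep class.

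**Figure D4:**
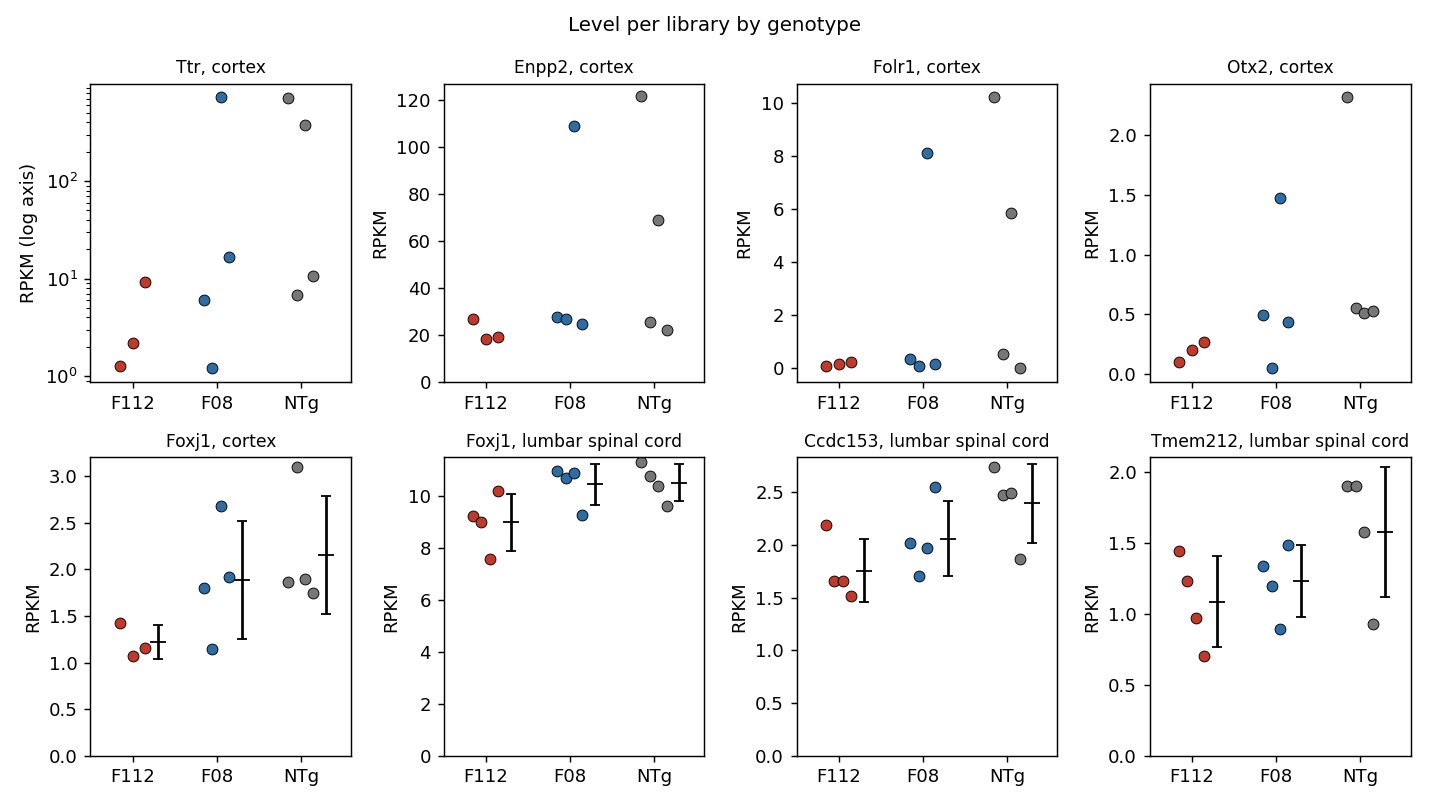
Level of 7 members in each library by genotype (F112, F08, NTg), in RPKM, with a log axis for Ttr. Bars beside Foxj1, Ccdc153 and Tmem212 are the mean and SD. In cortex, all 3 F112 points of Otx2 and Foxj1 lie below all 4 NTg points, and F08 6320 stands with the high NTg libraries for Ttr, Enpp2 and Folr1.

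F08 against NTg, which asks about the transgene without the expansion, showed no called member in cortex (0 of 31, beside 0% of all genes) and none with an unadjusted p under 0.05 (beside 2.61%). Without F08 6320 the unadjusted count was 10 of 28, and without NTg 6327 it was 3. The share of all genes was not computed for these refits, and without F08 6320 the libraries rich in Ttr are all NTg. No member's groups separated with F08 lower (0 of 31, beside 0.873%). Ttr differed by -1.81 (SE 1.84; exact permutation p = 0.543), Folr1 by -0.91 (SE 1.00) and Foxj1 by -0.17 (SE 0.21; exact permutation p = 0.486), with 1 high library in F08 and 2 in NTg. Beside 50.5% of all genes (median -0.002), log2 fold changes were below 0 for 27 of 31 members (median -0.40). The median depended on single libraries: it was -0.77 without F08 6320, -0.20 without F08 6318, -0.17 without F08 6319, -0.62 without NTg 6323, -0.61 without NTg 6327, and -0.05 without NTg 6322, with 16 of 26 below 0. Of the other lists, 19 of 19 striatal genes (median -0.60) and 19 of 20 leptomeningeal genes (-0.27) were below 0, and 13 of 17 hippocampal and thalamic genes (0.42) above 0. Without the 3 libraries rich in Ttr, Ttr was at -0.64, Foxj1 at -0.45 and the median of all genes at -0.07. The median of members was then -0.37, with 14 of 19 below 0. The Foxj1 value of -0.45 rests on 2 NTg libraries, 1 of them NTg 6323, the highest for Foxj1. With NTg 6323 alone left out Foxj1 was at -0.0093. Within mice high in Xist the median was -1.23 and within those low in Xist 0.42, where F08 6320 and NTg 6326 face each other.

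F112 against F08, which sets the expansion against the same gene without it, also called 0 of 31 members in cortex, beside 0% of all genes, and none had an unadjusted p under 0.05, beside 2.47%. Rsph1 was the 1 member (3.23%, beside 2.05% of all genes) whose groups did not overlap, with 0.782 to 0.955 RPKM in F112 cortex and 1.03 to 1.43 RPKM in F08 cortex. Ttr differed by -2.42 (SE 1.98; exact permutation p = 0.400), Folr1 by -0.98 (SE 1.08) and Foxj1 by -0.44 (SE 0.23; exact permutation p = 0.143). Beside a median of -0.02 over all genes (56.3% below 0), the median over members was -0.37, with 25 of 31 below 0. Without the 3 libraries Ttr was at -0.67, Foxj1 at -0.29 and the median at 0.10, with 7 of 19 below 0, and the median was also 0.10 without F08 6320 alone and -0.57 without F08 6319.

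In F112 cord the ciliary members lay below NTg cord by small amounts, and none passed the adjusted test. With F112 against NTg, 0 of 17 members were called, beside 0.00723% of 13839 genes, and 3 (17.6%) had an unadjusted p under 0.05, beside 7.11% of all genes. The 3 were Ccdc153, Foxj1 and Tmem212, all ciliary and all lower in F112. With log2 alignments as a covariate the count was 1, and without NTg 6327 it was 5. All 5 ciliary members had log2 fold changes below 0 (median -0.22), while the 12 choroid members had a median of -0.02 with 7 below 0. Over all genes the median was -0.01 with 56.3% below 0. The median of all 17 members was -0.09, and -0.04 with the alignments covariate. Blood genes were lower by more (9 of 10 below 0, median -0.41, none with an unadjusted p under 0.05), and 8 of 10 astrocyte genes were below 0 (median -0.05).

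Ccdc153 averaged 1.75 ± 0.30 RPKM in F112 cord and 2.39 ± 0.37 RPKM in NTg cord (SD, n = 4 each), a log2 fold change of -0.36 (SE 0.12, unadjusted p = 0.00711, adjusted p = 0.557 by limma). Within mice high in Xist it differed by -0.37 and within those low in Xist by -0.35. Foxj1 averaged 9.00 ± 1.09 RPKM in F112 cord and 10.5 ± 0.72 RPKM in NTg cord (SD, n = 4 each), a log2 fold change of -0.22 (SE 0.08, adjusted p = 0.609 by limma). The exact permutation test gave p = 0.0571, adjusted to 0.114. Foxj1 was at -0.27 in mice high in Xist and at -0.17 in mice low in Xist.

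Tmem212 averaged 1.09 ± 0.32 RPKM in F112 cord and 1.58 ± 0.46 RPKM in NTg cord (SD, n = 4 each), a log2 fold change of -0.38 (SE 0.17, adjusted p = 0.684 by limma), and of -0.12 with log2 alignments as a covariate. Rsph1 and Dynlrb2 differed by -0.15 (SE 0.09) and -0.15 (SE 0.13). F112 and NTg cord overlapped for every member, so that 0 of 17 separated with F112 lower, beside 2.10% of all genes.

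F08 against NTg called 0 of 17 members in cord, beside 0.00723% of all genes, and 0 had an unadjusted p under 0.05, beside 4.10%, a count that was 3 without NTg 6327. Foxj1 averaged 10.5 ± 0.79 RPKM in F08 cord and 10.5 ± 0.72 RPKM in NTg cord (SD, n = 4 each), a log2 fold change of -0.01 (SE 0.08; exact permutation p = 0.886). Ccdc153 and Tmem212 differed by -0.18 (SE 0.12) and -0.25 (SE 0.17), within the spread between mice. As in F112, all 5 ciliary members were below 0 (median -0.15), beside 44.4% of all genes. With log2 alignments as a covariate 3 of them were. No member separated with F08 lower, beside 1.52% of all genes.

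F112 against F08 called 0 of 17 members in cord, beside 0.0217% of all genes. Foxj1 and Kl, 11.8% of the members, had an unadjusted p under 0.05, beside 10.4% of all genes, so that the members' share was near the background, and without F112 6324 the count was 0. Foxj1 differed by -0.21 (SE 0.08, adjusted p = 0.416 by limma; exact permutation p = 0.0571, adjusted to 0.114) and Kl by -0.15 (SE 0.07, adjusted p = 0.481 by limma). Ccdc153 differed by -0.18 (SE 0.12). No member separated with F112 lower, beside 4.18% of all genes. The comparisons within a tissue share libraries, so their differences are not independent of each other.

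**Figure D5:**
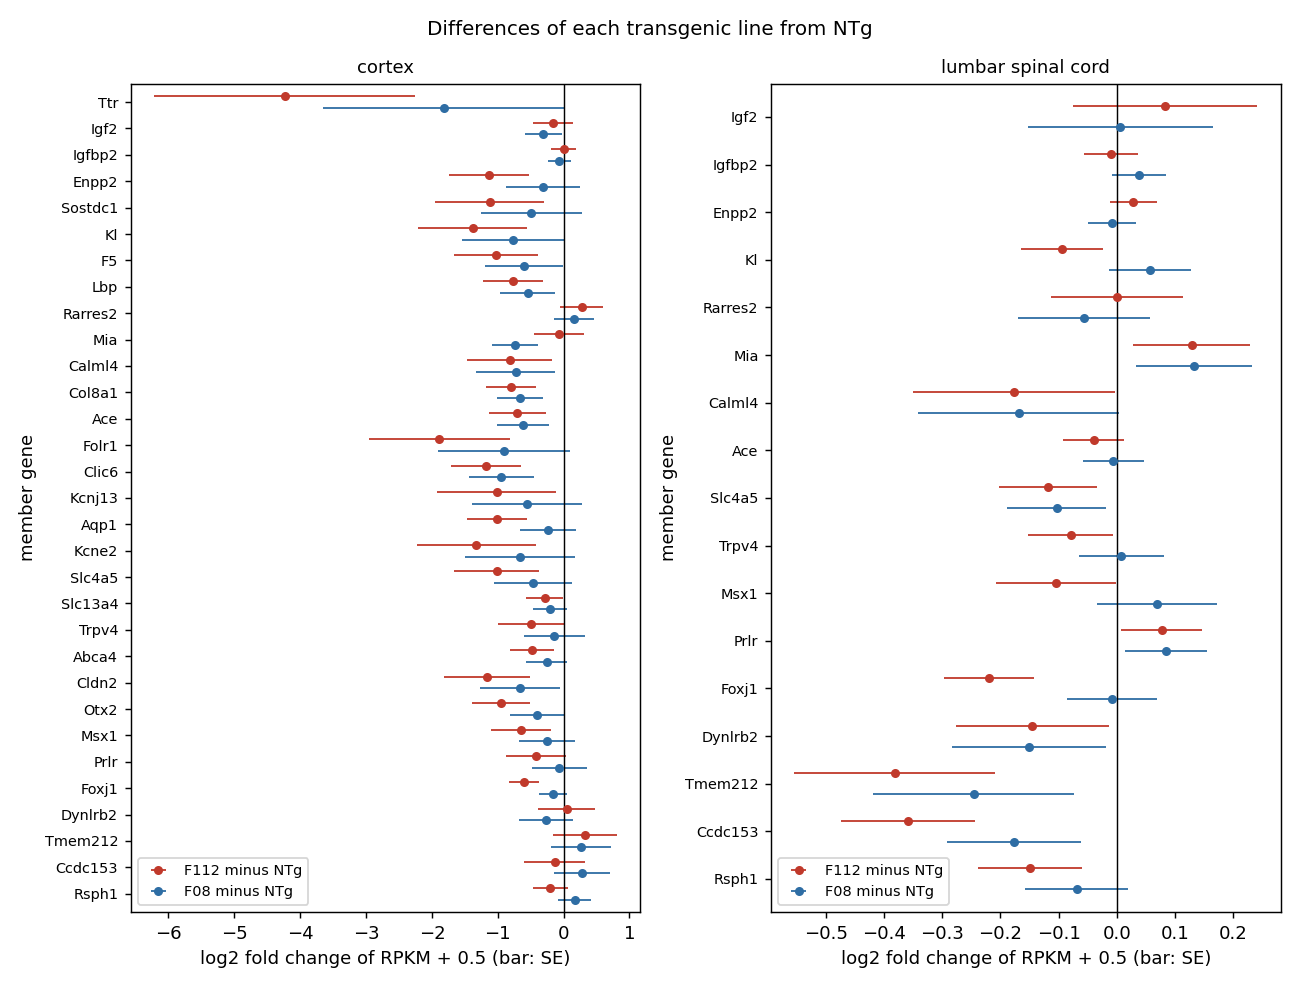
Log2 fold change of RPKM + 0.5 against NTg for each member kept, with F112 in red and F08 in blue and the SE as a bar, in cortex (left) and lumbar cord (right), on axes of different range. In cortex the largest differences are those of Ttr and Folr1 with wide bars, and in cord Foxj1, Tmem212 and Ccdc153 lie farthest below 0 in F112.

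The difference between tissues was tested directly as the cortex difference minus the cord difference over 13099 genes kept in both tables, 17 of them members. None of the 17 was called for F112 against NTg (beside 0.00763% of all genes), F08 against NTg (beside 0.00763%) or F112 against F08 (beside 0%). Foxj1 had a difference of -0.39 (SE 0.23, adjusted p = 1 by limma) for F112 against NTg, and Enpp2 of -1.16 (SE 0.61).

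Other genes of the same cells were read from 2 lists. Among 20 further motile cilia genes tested in F112 against NTg cortex, 12 were below 0 (median -0.07), 0 were called and 0 had an unadjusted p under 0.05. In cord, 17 of 24 were below 0 (median -0.11), 0 were called and 1, Odf3b, a protein of outer dense fibre type named for its value, had an unadjusted p under 0.05 at -0.33 (SE 0.13). The most abundant of the list were Rsph3a, Rsph9 and Drc1 in cortex, with means of 5.72, 5.21 and 3.69 RPKM, and Rsph3a, Rsph9 and Ccdc39 in cord, with means of 4.23, 3.10 and 2.72 RPKM. In F112 against NTg cord the share below 0 was 70.8%, beside 56.3% of all genes. The 1 of 24 stood beside 7.11% of all genes with an unadjusted p under 0.05, so the list did not exceed the background by that count. For F08 against NTg cord the share below 0 was also 70.8% (median -0.06), beside 44.4% of all genes. There 0 were called and 2, both lower, had an unadjusted p under 0.05, beside 4.10% of all genes. In F08 against NTg cortex 10 of 20 were below 0.

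Of 30 further choroid genes tested in F112 against NTg cortex, 24 were below 0 (median -0.28), beside 56.4% of all genes. For F08 against NTg 25 of the 30 were below 0 (median -0.29), beside 50.5% of all genes. For F112 against F08 15 were below 0 (median -0.003), beside 56.3%. Neither of these comparisons gave a gene of the list with an unadjusted p under 0.05. In F112 against NTg 0 were called and 4 had an unadjusted p under 0.05, all lower, beside 1.97% of all genes. Among them 1500015O10Rik (Ecrg4, a secreted choroid peptide precursor), named after its values were seen, had 0.125, 0.360 and 0.931 RPKM in F112 cortex, 2.41, 0.993, 17.3 and 0.986 in F08 cortex, and 13.6, 1.82, 10.4 and 0.943 in NTg cortex. It had the same 3 high libraries as Ttr. Genes of this list could also pass the floor through those libraries, and no value without them was computed for the list. The most abundant genes of that list, Slc22a17, Slc4a10 and Vat1l, had cortex means of 129, 22.8 and 17.8 RPKM and lacked that pattern. Slc22a17 had 129 RPKM in F08 6320, 113 in NTg 6322 and 130 in NTg 6326, within the 113 to 139 RPKM of all libraries. In cord 17 of 28 were below 0 (median -0.04), 0 were called and 3 had an unadjusted p under 0.05, beside 7.11% of all genes, 2 of them lower and 1, the secreted phosphoprotein Spp1, higher in F112 at 0.12 (SE 0.05).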

How the data were processed

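Total RNA from frozen cortex and lumbar spinal cord was sequenced with Ion Torrent (brain) or Illumina (cord) protocols, per the labels. The authors deposited 1 table of RPKM values per tissue, with the number of alignments of each library. TopHat2 2.0.8b and Partek are named as tools, and mm9 and mm10 as builds, per the submitters' processing notes. No source used here says which applied to which tissue, how genes were counted or whether strand was kept. No read counts were analysed, so no count model was used.

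Genes averaging 0.5 RPKM or more were fitted as log2(RPKM + 0.5) per tissue with limma 3.58.1 in R 4.3.3 (empirical Bayes with a trend), all genotypes in 1 fit, two-sided. A call was a Benjamini-Hochberg adjusted p under 0.05. The fits were tested on simulated data. Exact permutation tests covered Ttr and Foxj1. Correlations used all orderings of 8 libraries or 100000 resamples. Libraries of 1 animal in both tissues share its number, and their deviations correlated at 0.0268 to 0.231 across genes. A fit with the animal as replicate block changed no call in the tissue test.

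Members and gene lists were chosen with earlier results of these data known. The 3 cortex libraries with Ttr above 100 RPKM were left out in an alternative added after seeing the data. All members are named. Of the other choroid and motile cilia lists the 3 most abundant genes are named, of the remaining lists the 2 most abundant, and outside all lists up to 8 genes per tissue most correlated with the choroid members. Odf3b and 1500015O10Rik fall outside this rule.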

Additional observations from a re-analysis of the deposited data

Results flagged for a closer look

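Within a genotype of 4 libraries, a library was marked where its gap to the nearest other divided by the group's range exceeded Dixon's 95% critical value. This was tested in 113 groups and marked 25. Chance marks about 1 in 20 independent groups, but most marks fell on 1 cortex library already set apart by Ttr. Genes that are high together in a library are not independent, so the count of marks cannot be compared with chance. F112 cortex, with 3 libraries, was not tested.

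In F08 cortex, library F08 6320 was far above the other 3 for 15 choroid members. They were Ttr (725 RPKM), Enpp2 (109 RPKM), Folr1 (8.11 RPKM), Kl (6.98 RPKM), Sostdc1 (6.77 RPKM), Aqp1 (5.52 RPKM), Kcne2 (4.74 RPKM), Msx1 (3.91 RPKM), Calml4 (3.15 RPKM), Slc4a5 (2.17 RPKM), Trpv4 (2.01 RPKM), Cldn2 (1.97 RPKM), F5 (1.96 RPKM), Lbp (1.52 RPKM) and Col8a1 (1.31 RPKM). In NTg cortex, NTg 6322 was far above the others for Calml4 (2.73 RPKM), Trpv4 (2.64 RPKM) and Otx2 (2.32 RPKM). NTg 6323 stood apart for Foxj1 (3.10 RPKM, others at most 1.90) and Ccdc153 (2.33 RPKM, others at most 0.351).

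In cord the marks were small in size. F08 6319 was highest for Enpp2 (124 RPKM, others 120 to 121). F08 6320 was lowest for Slc4a5 (0.381 RPKM) and F08 6321 for Foxj1 (9.29 RPKM, others 10.7 to 11.0). NTg 6327 was lowest for Trpv4 (0.461 RPKM) and Rsph1 (2.01 RPKM, others 2.50 to 2.59).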

How the results depend on the processing

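No member was called in any comparison under any alternative run: scaling by median of ratios or by quantiles, a pseudocount of 0.1 or 1, a filter of 5 RPKM or none, a fit to only the groups compared, robust limma, an Xist or alignments covariate, leaving out each library, and leaving out the 3 cortex libraries rich in Ttr. With the replicate block, members called for the paired tissue difference stayed at 0, with 1, 1 and 0 genes called in all. Counts over all genes moved as follows. In cortex, F112 against NTg gave 1 to 2 genes and F112 against F08 gave 0 to 1 when a library was left out, and F08 against NTg gave 1 with median-of-ratios scaling and 3 without the Ttr-rich libraries. In cord, F112 against NTg gave 0 with a pseudocount of 1, no filter, a filter at 5, only the groups compared or the alignments covariate, and 0 to 2 when a library was left out. F08 against NTg gave 2 with robust limma or the Xist covariate and 0 with the alignments covariate. F112 against F08 gave 1 with no filter, a filter at 5 or only the groups compared, 6 with the Xist covariate, 2 to 4 with the other alternatives, and 1 to 4 when a library was left out. The median of members in F112 against NTg cord was -0.0013 with no filter, which brings in members near 0 RPKM. Foxj1 changed sign in F08 against NTg only, where it was near 0: in cord 0.0045 with the alignments covariate and -0.0483 to 0.0462 when a library was left out, and in cortex -0.318 to 0.00132. The cause was not tested. In F112 against NTg, Foxj1 kept its sign throughout, at -0.69 to -0.45 in cortex and -0.28 to -0.14 in cord when a library was left out. Depth in cortex limits the low members: 0.5 RPKM is under 8 alignments per kilobase there. Shares of all genes with an unadjusted p under 0.05 were not computed for the alternative runs in either tissue.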

Other observations

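Outside all lists, the cortex genes with at least 1 RPKM whose log2 level followed the mean of the 26 choroid members kept most closely were Col8a2, Emp2, Serhl, Col9a3, Slc39a13, Map3k7, Cpt1a and Ntrk3. Col8a2, a collagen VIII chain, had 1.89 RPKM in F08 6320, 4.06 in NTg 6322 and 1.17 in NTg 6326, against at most 0.887 in the other 8. NTg 6326 lay within the range of the other 8 for Col9a3 and Emp2, and above it for Ntrk3, a neurotrophin receptor (19.5, 21 and 19.1 RPKM, against at most 18.4). Col9a3, a collagen IX chain, had 3.62, 2.91 and 2.11 RPKM in the same libraries, against at most 2.24, and Emp2, a membrane protein of epithelia, 6.51, 5.96 and 4.73 RPKM, against at most 4.85.

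In cord the genes most like the mean of the 12 choroid members kept were Rnpep, Slitrk1, Tmem158, Tmco6, Csgalnact1, Cpe, Kptn and 1700019G17Rik, with Pearson's r of 0.841 to 0.895 over 12 libraries. They were picked as the highest among all genes of at least 1 RPKM, so their r is a description. Cpe, the most abundant of them, spanned 405 to 448 RPKM.

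The highest Ttr in cord, 0.697 RPKM, came from F112 6317, whose cortex had 2.18 RPKM. Mice F08 6320, NTg 6322 and NTg 6326, with the highest Ttr in cortex, had 0.0262, 0 and 0.0617 RPKM of Ttr in cord.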
